A study of Homo sapiens with 6 samples.

Results

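The genes described here are the plasminogen activators PLAU and PLAT, the urokinase receptor gene PLAUR, and the inhibitor genes SERPINE2 and SERPINB2. Their probe sets, the groups of short probes that each measure 1 transcript or a set of transcripts, were taken wherever the platform annotation gave exactly 1 gene symbol and that symbol was one of the 5. This gave 21 of the 49395 probe sets on the array: 3 for PLAU, 7 for PLAT, 5 for PLAUR and 6 for SERPINE2. SERPINB2 had 0 such probe sets and was not analysed here, so the values below cover 4 of the 5 genes. The RNA came from HMEC-1, a line of human endothelial cells of small skin vessels that was immortalised by a viral oncogene and was kept without serum for this experiment. In 3 samples, labelled EPC-Exos, the cells had received vesicles at 1e+11 particles per mL for 24 hours; in the other 3, labelled PBS, they had received the same volume of phosphate-buffered saline. The study is known to concern exosomes released by human endothelial progenitor cells and their action on endothelium.

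Plasminogen is a circulating zymogen that urokinase (PLAU) and tissue plasminogen activator (PLAT) cleave to plasmin, a broad protease that dissolves fibrin and opens matrix. The urokinase receptor (PLAUR) is a protein anchored to the membrane by glycosylphosphatidylinositol; it holds urokinase at the cell surface, so that plasmin forms close to the cell, and it also binds vitronectin and acts with integrins. Serpins such as protease nexin-1 (SERPINE2) and plasminogen activator inhibitor 2 (SERPINB2) trap the activators in stable complexes. Endothelial cells are a main source of tissue plasminogen activator for clot removal, and raise urokinase and its receptor when they migrate.

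After EPC-Exos the receptor gene PLAUR rose 2.88-fold and the urokinase gene PLAU fell 2.69-fold. Of the other activator and its inhibitor, PLAT rose 1.64-fold and SERPINE2 fell 1.50-fold. These folds are for 1 probe set a gene, the one with the highest mean log2 signal over the 6 arrays, and come from limma with Benjamini-Hochberg adjustment over 11715 genes (n = 3 arrays per group). Of the 4 genes tested, 2 were called higher and 2 lower at an adjusted p under 0.05. On these arrays a call alone says little, since 49.1% of all genes tested were called, 21.7% higher and 27.3% lower. All 4 also met the study's threshold (fold change of 1.5 or more, p below 0.05 without adjustment), as did 9.89% of tested genes. By size of change PLAUR ranked 42nd of the 5646 genes with a higher mean and PLAU 70th of the 6069 with a lower one, while PLAT ranked 313th and SERPINE2 697th. Over all genes tested the median change was -0.011 on the log2 scale, and the median size of change was 0.18.

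The log2 signals of PLAU were 10.15, 10.28 and 10.35 with PBS, against 8.84, 8.81 and 8.86 with EPC-Exos. Every PBS array lay more than a log2 unit above every EPC-Exos array. The difference was -1.43 ± 0.062 (limma's moderated standard error; 95% confidence interval -1.56 to -1.29; adjusted p = 1.69e-11). Both other PLAU probe sets were called lower too, with differences of -1.35 and -1.20. The smaller of these changes came from the probe set with the lowest signal of all 21, which read 7.36 to 7.62 with PBS and 6.27 to 6.34 with EPC-Exos.

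PLAT, the activator that endothelium releases into blood, had log2 signals of 10.55, 10.58 and 10.39 with PBS. With EPC-Exos they were 11.21, 11.30 and 11.16, so the groups did not overlap. The difference was 0.71 ± 0.057 (95% confidence interval 0.59 to 0.83; adjusted p = 2.45e-08 in limma). PLAT was measured by 7 probe sets, and all 7 were higher, by 0.58 to 0.87 log2. The smallest of these, 1.49-fold, was the only PLAT probe set under the study's 1.5-fold threshold. The activator genes moved in opposite directions, with confidence intervals on either side of 0.

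The receptor gene PLAUR had the largest fold of the 4 genes. Its log2 signals were 8.89, 8.99 and 9.06 with PBS and 10.50, 10.55 and 10.48 with EPC-Exos, a gap of over a log2 unit between the groups. The difference was 1.53 ± 0.060 (95% confidence interval 1.40 to 1.65; adjusted p = 3.72e-12 in limma). The tested probe set is of the _x_at kind, whose probes can bind other transcripts. The 3 PLAUR probe sets of the gene-specific kinds gave 1.43, 1.52 and 1.59, and the other _x_at probe set gave 1.47.

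SERPINE2 encodes a serpin that inhibits thrombin, urokinase and tissue plasminogen activator at cell surfaces. Its log2 signals were 13.16, 13.17 and 13.22 with PBS and 12.58, 12.61 and 12.60 with EPC-Exos. The groups were separate, and the difference of -0.59 ± 0.030 had the smallest standard error of the 4 genes (95% confidence interval -0.65 to -0.52; adjusted p = 1.62e-10 in limma). This probe set is of the _s_at kind, which can be shared between genes, and its signal was close to the top of the arrays' range of 14.52, where a change can be compressed. Its fold, 1.50, sat at the study's threshold and dropped below it with median centring (1.48), without PBS replicate 3 (1.48), without EPC-Exos replicate 1 (1.49) and with linear offsets of 16 (1.4996) and 64 (1.496). The other 5 SERPINE2 probe sets fell by 0.62 to 0.76, and those of the gene-specific kind gave -0.62, -0.68 and -0.76.

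**Figure D1:**
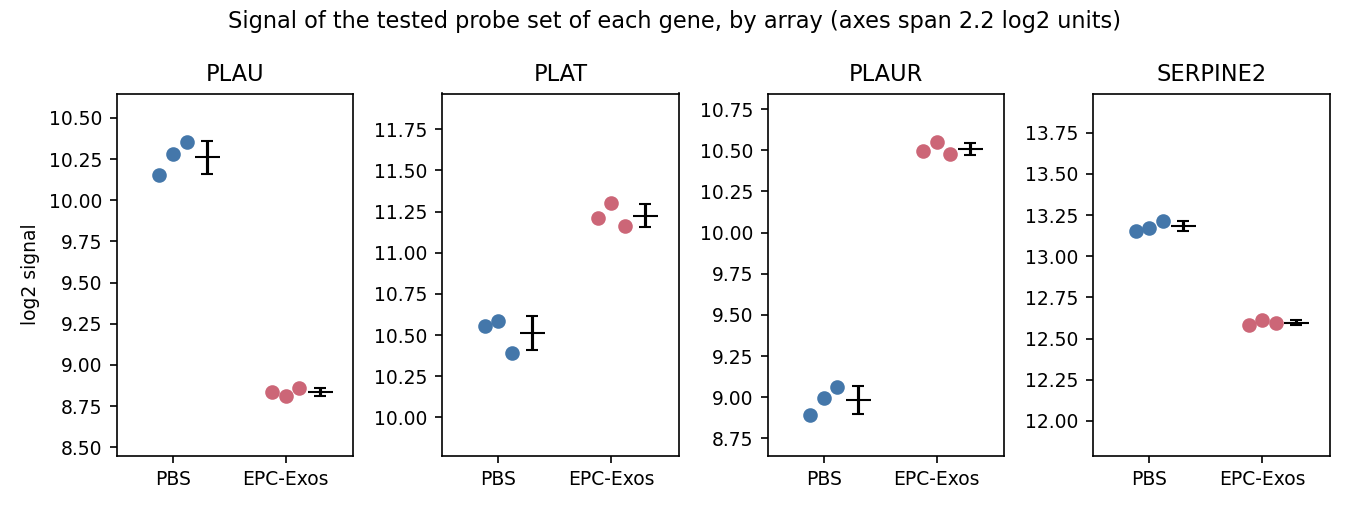
Log2 signal of the tested probe set of PLAU, PLAT, PLAUR and SERPINE2 on each array; points are arrays (3 with PBS in blue, 3 with EPC-Exos in red), and black bars give the mean ± SD of each group. All vertical axes span the same range of log2 units, and in each gene the groups do not overlap: PLAU and SERPINE2 are lower with EPC-Exos, PLAT and PLAUR higher.

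Across all 21 probe sets, 12 were called higher and 9 lower in a limma fit over every non-control probe set, in which 28.4% of probe sets were called. None of the 4 genes had probe sets that differed in direction, and the largest adjusted p among the 21 was 1.04e-05. The groups did not overlap in any of the 21, against 39.1% of all probe sets and 55.7% of genes tested; the narrowest gap between the groups was 0.39 log2, in a PLAT probe set. Probe sets of 1 gene share their RNA, arrays and in part their probes, so they repeat the measurement without adding replicates. Within a gene the changes spanned 2.30-fold to 2.69-fold for PLAU and 2.69-fold to 3.02-fold for PLAUR. They spanned 1.49-fold to 1.83-fold for PLAT and 1.50-fold to 1.70-fold for SERPINE2. The lowest group mean among the 21 probe sets, 6.30, lay above 4.97, the highest mean among the Tag controls, whose sequences are foreign to the human transcriptome and so give a guide to background.

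**Figure D2:**
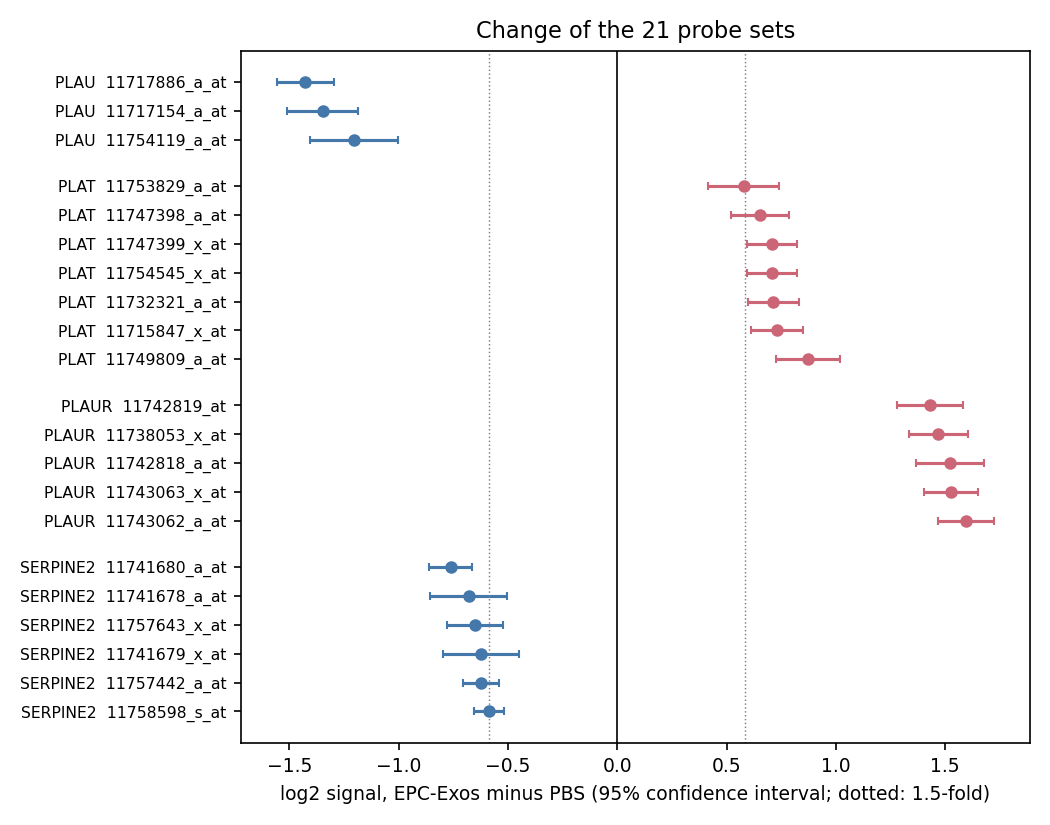
Change in log2 signal (EPC-Exos minus PBS) of each of the 21 probe sets, with 95% confidence intervals from the limma fit over all probe sets; dotted lines mark a 1.5-fold change and the black line no change. The 3 PLAU and 6 SERPINE2 probe sets lie to the left of 0 and the 7 PLAT and 5 PLAUR probe sets to the right.

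The sequences before the starts of PLAUR and PLAU are shown because the receptor and its ligand moved in opposite directions, and because both genes are known as targets of AP-1 and ETS factors. They are the 250 bases before a transcript start, from the RefSeq promoter table of GRCh38.p14, 5′ to 3′ on the gene's strand. Capitals mark matches to the AP-1 motif TGAGTCA and to the GC box GGGCGG, searched on both strands. PLAUR lies at chr19:43670170-43670419 on the minus strand, and the PLAU window lies at chr10:73910882-73911131 on the plus strand.
PLAUR: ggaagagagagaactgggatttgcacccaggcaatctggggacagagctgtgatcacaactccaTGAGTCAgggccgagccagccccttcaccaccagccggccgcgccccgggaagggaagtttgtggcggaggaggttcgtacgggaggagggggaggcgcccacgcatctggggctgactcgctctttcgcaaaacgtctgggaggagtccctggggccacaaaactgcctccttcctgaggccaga
PLAU: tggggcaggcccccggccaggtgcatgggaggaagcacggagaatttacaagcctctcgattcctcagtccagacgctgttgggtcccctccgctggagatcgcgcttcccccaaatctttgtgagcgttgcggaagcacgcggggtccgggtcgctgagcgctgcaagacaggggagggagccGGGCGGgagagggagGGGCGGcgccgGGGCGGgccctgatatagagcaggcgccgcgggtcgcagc

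The PLAUR window held 1 match to TGAGTCA, which begins 186 bases before the start; 4.20% of all 35116 RefSeq promoter windows of the same length held one. It had 0 GC boxes. The PLAU window held 3 GC boxes, which begin 66, 51 and 40 bases before the start, and 42.6% of windows held at least 1. It had 0 matches to TGAGTCA, as did the window before a second PLAU start in the table and both windows of SERPINE2. The other motifs searched were the AP-1 variant TGAATCA (2.53% of windows), the NF-kB motif GGANTTTCC (1.45%) and the ETS motif CCGGAAGT (3.42%), with 0 matches in any of these 5 windows. The PEA3 motif AGGAAG, which 28.7% of windows held, had 1 match in each of the windows printed. No 2 of these matches overlapped. A match is a string of letters, not a measured binding site, and windows further from the start were not searched. No window of PLAT was read.

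Genes of AP-1, ETS, NF-kB and KLF factors were followed as a list of 18, and whether any of these factors acts on the windows above was not tested. The test called 9 of the 18 genes higher and 3 lower and left 6 uncalled. Of all genes tested, 21.7% were called higher and 27.3% lower, shares that stand beside the counts of every list below too. The median log2 change of the 18 was 0.16. The AP-1 subunit gene FOSL1 rose by 1.16 ± 0.066 (SE), from a log2 signal of 9.33 ± 0.12 (SD, n = 3) to 10.49 ± 0.079, and ETS1, an endothelial ETS factor, rose by 1.02 ± 0.048. The AP-1 subunit JUN, named after its values were seen, rose by 0.79 ± 0.055. The zinc finger factor genes KLF4 (-1.05 ± 0.058) and EGR1 (-0.89 ± 0.056) fell. FOS, also named after its values were seen, had a change of -0.094 ± 0.097 and did not pass, but its 4 probe sets above the signal filter ranged from -1.12 to -0.09. Without _x_at and _s_at probe sets FOS fell (-1.12, adjusted p = 2.37e-07 in limma).

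The zymogen itself read as background in these cells. PLG, plasminogen, named like SERPINF2 after its values were seen, had a log2 signal of 3.81 ± 0.099 (SD, n = 3) with PBS and 3.84 ± 0.18 with EPC-Exos, both under the highest Tag control mean. Of 6 genes for plasminogen and the contact activators, 1 lay above the signal filter: F12, coagulation factor XII, which rose by 0.42 ± 0.079 (SE; adjusted p = 0.000309 in limma), measured by an _x_at probe set. Of 7 measured inhibitors of the activators and of plasmin, 1 lay above the filter, SERPINI1, the tissue plasminogen activator inhibitor neuroserpin. It fell by 0.74 ± 0.14 (adjusted p = 0.000429 in limma), from 5.92 ± 0.27 (SD) to 5.18 ± 0.22, close to background. SERPINI1 passed the signal filter of 5.45 only through its PBS arrays, the group in which it was high. The 6 inhibitors below the filter, among them the plasmin inhibitor gene SERPINF2 (5.40 ± 0.15 with PBS, 5.44 ± 0.20 with EPC-Exos), gave 0 calls in the fit over all probe sets.

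Cell surface receptors for plasminogen were well above background and moved both ways. Of 5 genes, 2 rose, 2 fell and 1 did not pass. S100A10, which binds plasminogen as the partner of annexin A2, fell by 0.58 ± 0.039 (SE), from a log2 signal of 12.78 ± 0.062 (SD, n = 3) to 12.20 ± 0.053. ANXA2, annexin A2 itself, named after its values were seen, had 13.82 ± 0.027 and 13.80 ± 0.018, a difference of -0.026 (95% confidence interval -0.080 to 0.028) at the top of the signal range. The enolase gene ENO1 (0.31 ± 0.035) and PLGRKT, a transmembrane plasminogen receptor (0.26 ± 0.062), rose, and the keratin gene KRT8 fell (-0.21 ± 0.060).

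Among 13 tested partners and clearance receptors of the urokinase receptor, 5 rose and 6 fell, 2 were not called, and the median log2 change was 0.033. The integrin genes ITGB3 (1.39 ± 0.13), of the vitronectin receptor, and ITGA5 (0.77 ± 0.058), of the fibronectin receptor, rose most. ITGB3 started near background, at 4.99 ± 0.15 (SD, n = 3) with PBS, so its fold may be too small. It passed the signal filter of 5.45 only through its EPC-Exos arrays, whose mean was 6.38, so its place in these counts depends on that rise. VLDLR, a lipoprotein receptor that takes up complexes of urokinase with serpins, rose (0.67 ± 0.079). SORL1, a sorting receptor that also binds such complexes, fell (-1.06 ± 0.14), and its other probe set above the filter gave -2.23. LRP1, the main clearance receptor of these complexes, named after its values were seen, fell by 0.33 ± 0.087, a call that the mean of its probe sets did not give (adjusted p = 0.686 in limma).

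Of the serpins of clade B, the family of SERPINB2, 4 of 11 measured genes lay above the signal filter, and 2 of them rose and 2 did not pass. SERPINB7, the serpin megsin, had log2 signals of 5.70 ± 0.014 (SD, n = 3) with PBS and 7.38 ± 0.34 with EPC-Exos and rose by 1.67 ± 0.13 (SE; adjusted p = 2.02e-08 in limma). SERPINB8 rose by 0.54 ± 0.076; its 4 probe sets above the filter gave 0.17 to 0.54. SERPINB4 was called higher in the fit over all probe sets (0.50 ± 0.13), but both of its means, 3.43 and 3.93, lay under the highest Tag control mean.

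Of the proteins that plasmin or urokinase cleave or release, 6 of 14 genes lay above the filter; 3 rose, 1 fell and 2 did not pass. The interstitial collagenase gene MMP1 rose by 1.52 ± 0.067 (SE), from 9.61 ± 0.15 (SD, n = 3) to 11.13 ± 0.058. MMP14, a membrane collagenase, rose (0.42 ± 0.070), and the gelatinase gene MMP2 fell (-0.77 ± 0.073; -0.20 in the probe set that changed least). THBS1, thrombospondin-1, rose by 0.16 ± 0.049, but its 5 probe sets gave 0.16 to 1.08, and the limma call was lost without EPC-Exos replicate 2 (adjusted p = 0.0514), without PBS replicate 3 (adjusted p = 0.0524) and with no trend of the variance on signal (adjusted p = 0.0763). MMP9, below the filter, was called higher in the fit over all probe sets, from 4.98 ± 0.11 to 5.33 ± 0.12. Its PBS mean was level with the highest Tag control mean, 4.97, and its fold was 1.27. Fibrinogen genes FGA, FGB and FGG, named after their values were seen, had means of at most 4.67, under the Tag controls.

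PLAUR belongs to the LY6/uPAR domain family, and of 9 other genes of the family tested, 4 rose, 0 fell and 5 were not called. Among all genes tested 49.1% were called, 21.7% higher and 27.3% lower, so no rise of the family is read from this count. LY6K rose by 0.58 ± 0.050 (SE). LYPD1 (0.29 ± 0.096), LY6E (0.20 ± 0.079) and CD59, an inhibitor of complement (0.14 ± 0.039), were called too, but none of these 3 kept its limma call throughout. CD59 lost it without _x_at and _s_at probe sets (adjusted p = 0.323), and its probe sets ran from -0.31 to 0.31. LYPD1 lost it without EPC-Exos replicate 2 or 3 or PBS replicate 2 (adjusted p = 0.105, 0.0833 and 0.0678). LY6E lost it without any 1 array other than PBS replicate 2 (adjusted p from 0.0669 to 0.139). Without EPC-Exos replicate 2, or without replicate 3, the count of rises was 2 instead of 4.

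**Figure D3:**
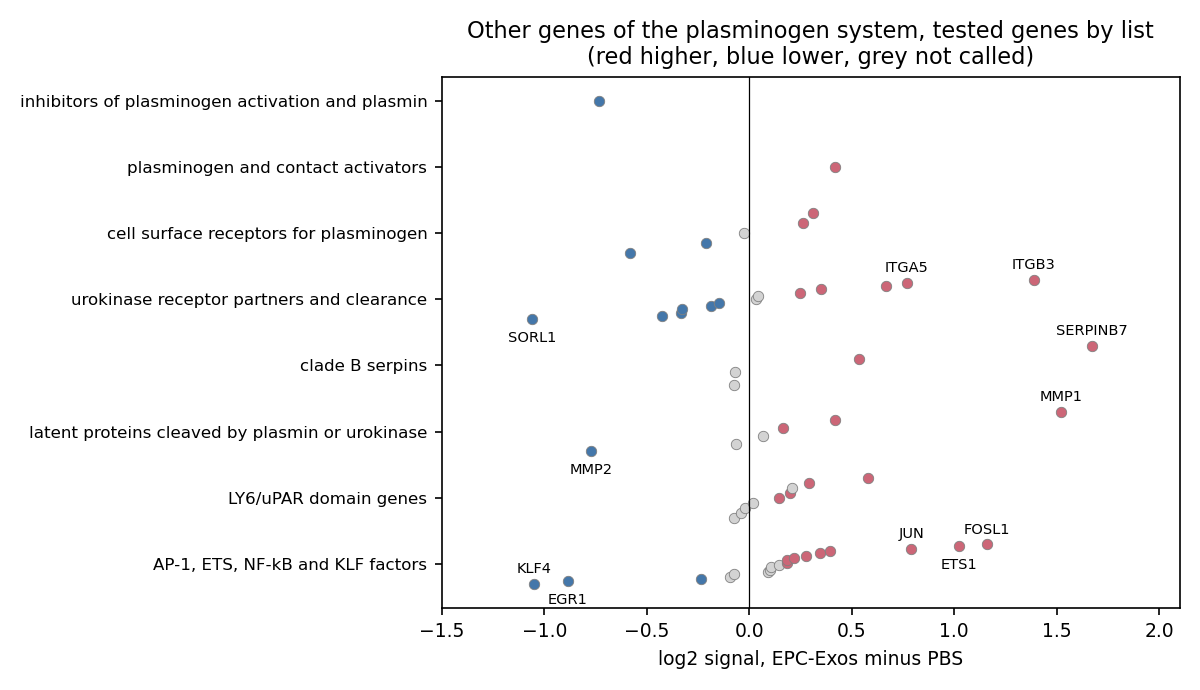
Change in log2 signal (EPC-Exos minus PBS) of the 57 tested genes in the 8 lists of the wider plasminogen system; each point is 1 gene, red where called higher, blue where called lower and grey where not called, with genes past 0.75 log2 in either direction named. SERPINB7, MMP1, ITGB3, FOSL1 and ETS1 lie furthest to the right, and SORL1 and KLF4 furthest to the left.

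Over the 8 lists together, 26 of 57 tested genes rose, 13 fell and 18 were not called; the median log2 change was 0.11. The share called, 68.4%, stands beside 49.1% for all genes tested; since the genes were listed with results of these data known, nothing is read from that difference. PLAUR, PLAU, MMP1 and SERPINB7 were the genes of the system, members and lists together, whose tested probe set changed by more than 1.4 log2 in either direction. ITGB3 lay just under this at 1.39. Other probe sets above the filter gave 1.43 for ETS1 and -2.23 for SORL1.

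The genes with profiles most like each member were found over the 6 arrays, by the root mean square distance between log2 signals after each gene was centred on its own mean. For PLAU these were ALDH3B1, an aldehyde dehydrogenase (0.0534 log2), PCYOX1L (0.0546) and LRIG1, a transmembrane regulator of receptor tyrosine kinases (0.0635). For PLAUR they were STEAP1 (0.0622), the secreted hormone gene STC1 (0.0633) and PLIN2, which coats lipid droplets (0.0672). Nearest to PLAT were the transcription factor GATA6 (0.0310), SYTL3 (0.0383) and the lysosomal protein gene CD68 (0.0387). SERPINE2 lay nearest to RHNO1 (0.0158), to VCL, the focal adhesion protein vinculin (0.0164), and to ADIPOR2, an adiponectin receptor (0.0179). The changes of these genes were close to those of the members by construction, from -1.48 for ALDH3B1 to 1.65 for PLIN2. With 6 arrays in 2 groups, the distance reflects mainly the size of the change.

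Array medians lay between 6.25 and 6.34, and no array stood apart (correlations of 0.997 within groups and 0.988 to 0.989 between them). Of 12 endothelial markers 8 exceeded the Tag controls in at least 1 group, while CDH5, TEK, CLDN5 and EMCN did not. The label of endothelial cell comes from the name of the line and does not rest on these markers. ENG and TIE1 read highest of the 12. With PBS, VWF (6.03), NOS3 (6.16), KDR (5.84) and ERG (5.42) lay below every array median. PECAM1 was close to background (5.18 with PBS, 5.23 with EPC-Exos) and below the signal filter. The summed linear signal of the 12 was between 1108 and 1297 with PBS and between 1735 and 1817 with EPC-Exos. Of the 7 endothelial markers tested, 3 were called higher and 4 were not called. The log2 signal of ENG, the strongest marker, rose from 9.16 to 9.96, that of TIE1 from 7.36 to 7.85 and that of ESAM from 7.16 to 7.46. Of 7 fibroblast markers, 5 exceeded the Tag controls, and the sum of the 7 moved with the treatment, from between 3135 and 3568 with PBS to between 2247 and 2472 with EPC-Exos. Of the 4 fibroblast markers above the signal filter, DCN fell from a log2 signal of 7.61 to 5.40, PDGFRB from 7.75 to 6.46 and COL1A1 from 11.07 to 10.40, while THY1 rose from 9.44 to 9.67. DCN passed the filter only through its PBS arrays. Below the filter, LUM was called lower in the fit over all probe sets (5.97 to 3.67), and COL1A2 and PDGFRA were not called. Of 6 smooth muscle and pericyte markers 5 exceeded them, and the sum was 461 to 495 with PBS and 287 to 338 with EPC-Exos, with ACTA2 as the only call. Their part in the changes of PLAU, PLAUR, PLAT and SERPINE2 was not tested, and in such bulk RNA fewer cells of a type and less RNA per cell cannot be told apart. Leukocyte markers (4 of 8 above the controls; PTPRC and CD14 at background), epithelial markers (3 of 5 measured) and platelet markers (4 of 6) had sums that overlapped between the groups. They were 263 to 317 and 301 to 329 for leukocytes, 169 to 198 and 185 to 193 for epithelium, and 212 to 234 and 213 to 250 for platelets, with PBS and EPC-Exos in that order. FCER1G, a leukocyte marker below the filter, was called higher in the fit over all probe sets (4.86 to 5.27), but its PBS mean lay under the highest Tag control mean. The 3′ minus 5′ signal of ACTB and GAPDH, a measure of RNA integrity, differed by 0.011 and 0.0092 log2 between the groups.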

How the data were processed

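RNA of HMEC-1 cells was hybridised to Affymetrix 3′ IVT arrays, 3 per group; titles gave groups and replicate numbers. Nothing in the labels says whether replicates are separate cultures; p-values therefore cover only the variation among these arrays, which could be technical. No hybridisation batch is named, so one that follows the groups cannot be told apart from treatment. The authors deposited 1 log2 signal per probe set and array; MAS5 is named without a role in the submitters' processing notes, and how background and scale were treated is not given in the sources used here. The log2 scale was taken from the range of values, 2.47 to 14.52. The values were used as deposited.

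Names came from the platform annotation (44988 probe sets with 1 symbol, 1832 with several, 2473 with none; 102 controls). A gene was tested where its highest-mean probe set reached the 40th percentile, a log2 signal of 5.45. The comparison used limma 3.58.1 under R 4.3.3 (variance trend, group as the only term, two-sided, Benjamini-Hochberg); a second fit took all probe sets unfiltered. The fit was tested on simulated data. The number of arrays limits the precision.

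The members and gene lists were chosen with earlier results of these data known. Named list genes are the 4 largest called changes per list, or its 2 smallest p-values where none was called, and those called below the filter, and for each member the 3 nearest profiles; cell type markers are named by list, and others are marked. Alternatives were 3 scalings, offsets of 16 and 64, other filters and probe set choices, no variance trend, array weights, a replicate block and leaving out each array.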

Additional observations from a re-analysis of the deposited data

How the results depend on the processing

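Under 18 alternatives each, PLAU, PLAUR, PLAT and SERPINE2 kept their direction and their call. The change ranged from -1.48 to -1.31 for PLAU, from 1.42 to 1.59 for PLAUR, from 0.66 to 0.75 for PLAT and from -0.65 to -0.56 for SERPINE2, and the largest adjusted p was 6.3e-05 (limma). The fold of SERPINE2 ran from 1.48 to 1.57 and reached 1.5 in 13 of the 18, so its side of the study's threshold depends on the setting. SERPINB2 gave no value under any setting. With the replicate number as a block the changes were the same (for PLAUR 1.53), and the calls over all genes were 2724 higher and 3394 lower against 2545 and 3203. Deviations of same-numbered arrays correlated at 0.20, 0.18 and 0.077, so the numbers were not taken as pairs, although each array correlated best with its own number. In the lists, 40 of 57 tested genes kept call and direction in every setting in which they were tested. Genes that a setting left untested were not counted as changed. The filter at the 60th percentile left 0 called inhibitors and 1 called clade B serpin, because fewer genes were tested. Without _x_at and _s_at probe sets there were 0 contact activators called, 1 plasminogen receptor higher and 1 lower, and 2 LY6/uPAR genes. CD59 was then read by another probe set, while LY6E kept its change of 0.20 and its adjusted p went from 0.0464 to 0.0525 with fewer genes tested (limma). With cyclic loess 2 cleaved proteins were lower instead of 1. The added gene was FN1, whose change went from -0.067 (adjusted p = 0.134 in limma) to -0.097 (adjusted p = 0.0285 in limma). The cause of this shift was not tested. Leaving out 1 array gave 2 to 3 called LY6/uPAR genes. Signal near background limits SERPINI1, ITGB3, SERPINB4, MMP9 and FCER1G, and signal near the top of the range SERPINE2 and ANXA2.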
